A study of Mus musculus with 11 samples.

Results

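Interferon gamma receptor signalling and its SOCS feedback were followed through 8 of the 21899 genes in the airway RNA-seq table. They were chosen by name for their place in the pathway. They are the ligand Ifng, the receptor chains Ifngr1 and Ifngr2, the receptor-bound kinases Jak1 and Jak2, the transcription factor Irf1, and the feedback inhibitors Socs1 and Socs3. Mice given OVA, LPS and vehicle had more Ifngr2 RNA than PBS mice, by 0.45 on the log2 scale. This was called in all 7 fits that each left out a library. Mice given GGsTop in place of vehicle had less Ifngr2 RNA than the vehicle mice, by a change of -0.41. That lower level was called in only 2 of 8 such fits. Socs3 was lower with OVA, LPS and vehicle than with PBS, a call that was lost once the GC content of the genes was corrected for. Socs1 was called lower with GGsTop than with vehicle after that correction, but not as deposited. The ligand itself was at the limit of detection in every group.

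Interferon gamma is made mainly by T cells and NK cells. It binds a receptor in which IFNGR1 holds the ligand and carries JAK1, while IFNGR2 carries JAK2. The kinases switch on transcription factors of the STAT family, whose dimers bind GAS sites in DNA and induce Irf1 and other target genes. SOCS1 and SOCS3 are themselves induced by STAT factors, and they bind JAK kinases or receptors and dampen the signal. SOCS1 acts mainly on the interferon gamma receptor, and SOCS3 mainly on gp130 receptors such as that of IL-6. In severe asthma, interferon gamma has been studied together with LPS as a driver of airway disease that responds poorly to steroids.

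The mice were wild-type male BALB/c young adults. The PBS group (3 libraries) was not sensitised and received PBS only. The OVA/LPS/Vehicle group (4 libraries, labelled 12, 34, 56 and 78) was sensitised with ovalbumin (OVA) in alum, challenged with OVA into the nose, and then given lipopolysaccharide (LPS) into the nose and vehicle into the trachea. The OVA/LPS/GGsTop group (4 libraries) had the same OVA and LPS and received GGsTop, an inhibitor of γ-glutamyl transferase, in place of vehicle. They are called the Vehicle and GGsTop groups for short. The sources do not say whether a 2-digit label means pooled mice, nor how many mice each library holds, so p-values measure the spread between libraries. The tissue is labelled trachea, whereas the study's methods describe bluntly dissected airway without the trachea. The summed level of 6 airway epithelium markers was 2.64e+04 to 4.83e+04 FPKM (fragments per kilobase of exon, scaled to the library's total), and that of 4 cartilage markers 0.256 to 54.6 FPKM. Alveolar epithelium markers were also abundant, at 4.55e+03 to 1.62e+04 FPKM.

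The library totals implied by the FPKM were between 14513136 and 18632382 fragments. Of the 8 genes, 7 were tested, among 14004 genes whose mean reached 0.5 FPKM, and Ifng was under that limit. 2 libraries stood apart. In PBS 3, levels rose with the GC content of the genes, by 0.53 log2 per 10 percentage points of GC relative to the mean of all libraries, against 0.05 to 0.06 in the other PBS libraries. This slope was -0.26 to -0.19 in the Vehicle libraries and 0.05 to 0.11 in the GGsTop libraries. The GC slope thus moved with the groups, and its part in a difference between them cannot be told apart from the treatment, so tests are given as deposited, with values after a GC correction beside those that bear on a call. Vehicle 12 held 23.6 FPKM of thymocyte markers (Rag1, Rag2, Dntt and Ptcra summed), against at most 0.348 in the other libraries, and 87.3 FPKM of T cell markers, against 14.8 to 43. Rag1, Rag2 and Dntt reached 8.53, 1.11 and 13.8 FPKM in the Vehicle group. Ptcra was not raised, with a highest value of 0.151 FPKM in the Vehicle group and 0.161 in the GGsTop group. Thyroid markers were at 92, 175 and 314 FPKM in Vehicle 12, 34 and 56, and at 0.432 to 1.6 in the other 8 libraries. In tissue RNA, fewer cells of a type and less RNA per cell cannot be told apart.

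The promoters of the genes that the pathway induces were read for the sites of its own transcription factors, since Irf1, Socs1 and Socs3 are the members on which the feedback turns. The windows run from 250 bases before to 50 after the RefSeq transcript start on GRCm38.p6, 5′ to 3′ on the strand of the gene. Capitals mark matches to the GAS site of STAT dimers (TTCNNNGAA) or to the core of the ISRE, the site of IRF factors (GAAANNGAA), searched on both strands.
Irf1, chr11:53769764-53770063, plus strand: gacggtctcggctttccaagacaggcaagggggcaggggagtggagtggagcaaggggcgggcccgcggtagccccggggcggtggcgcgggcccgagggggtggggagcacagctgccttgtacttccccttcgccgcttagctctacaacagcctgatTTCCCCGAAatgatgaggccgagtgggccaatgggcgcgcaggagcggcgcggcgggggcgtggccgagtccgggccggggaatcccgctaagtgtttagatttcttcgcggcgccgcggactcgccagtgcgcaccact
Socs1, chr16:10785487-10785786, minus strand: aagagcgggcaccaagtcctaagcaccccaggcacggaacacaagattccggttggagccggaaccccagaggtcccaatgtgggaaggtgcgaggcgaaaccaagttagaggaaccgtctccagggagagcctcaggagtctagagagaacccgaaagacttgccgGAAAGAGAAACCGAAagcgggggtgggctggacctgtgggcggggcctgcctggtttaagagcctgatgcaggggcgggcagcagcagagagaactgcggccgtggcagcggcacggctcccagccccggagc
Socs3, chr11:117969317-117969616, minus strand: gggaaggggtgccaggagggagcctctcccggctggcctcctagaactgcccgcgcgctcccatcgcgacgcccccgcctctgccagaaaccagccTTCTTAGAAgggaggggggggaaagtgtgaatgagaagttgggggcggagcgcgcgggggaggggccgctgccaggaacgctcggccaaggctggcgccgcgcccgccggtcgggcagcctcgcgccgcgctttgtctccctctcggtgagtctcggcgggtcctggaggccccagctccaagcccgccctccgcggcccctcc
In Irf1 the GAS match TTCCCCGAA began at position -90 from the start, while the window of a second Irf1 transcript start, not printed, held neither motif. In Socs3 the GAS match TTCTTAGAA began at position -154. Socs1 held no GAS match but held 2 copies of the ISRE core, GAAAGAGAA and GAAACCGAA, which overlap and begin at positions -83 and -77. The window of Ifng held 1 GAS match at its upstream edge, and those of Ifngr1, Ifngr2, Jak1 and Jak2 held neither motif. Of 32544 promoter windows in the mouse table, 8.3% held a GAS match and 8.5% an ISRE core match, so a match describes the letters and is not a measured site.

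**Figure D1:**
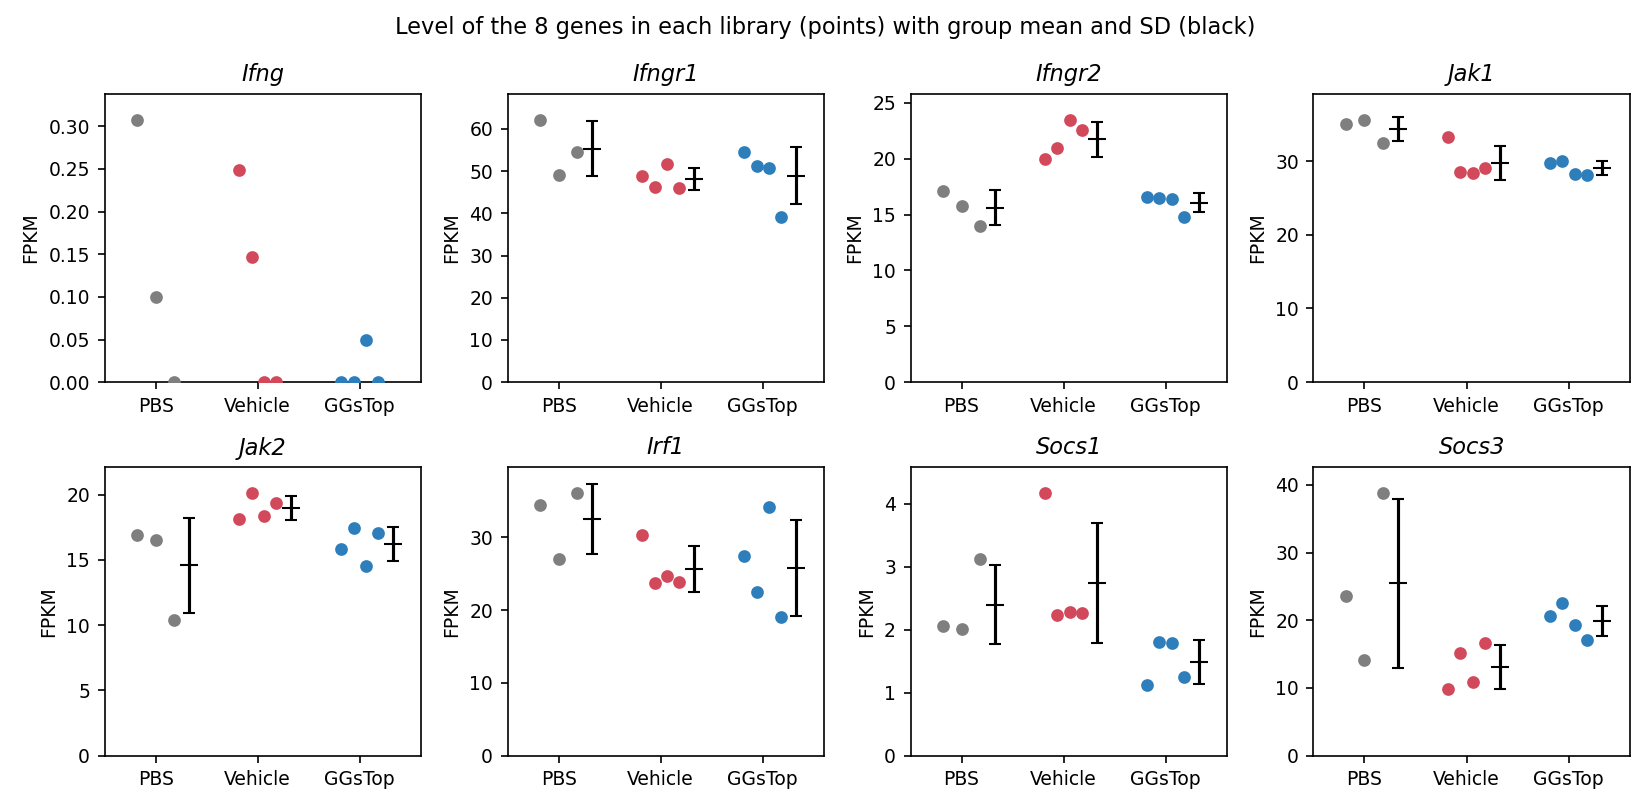
FPKM of the 8 genes in each library, by group on the horizontal axis, with 1 point per library and the group mean and SD in black (not drawn for Ifng). The 4 Vehicle points of Ifngr2 lie above all others, between 19.97 and 23.5 FPKM, and the 4 GGsTop points of Socs1 lie lowest, between 1.12 and 1.80 FPKM.

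The ligand came first. Ifng (ENSMUSG00000055170, GRCm38 chromosome 10, 118441046 to 118445892) was at 0.308, 0.0996 and 0 FPKM in PBS 1, 2 and 3. It was at 0.249, 0.147, 0 and 0 FPKM in Vehicle 12, 34, 56 and 78, and at 0, 0, 0.0489 and 0 FPKM in GGsTop 1 to 4. These levels stood for 8 fragments in the PBS group, 8 in the Vehicle group and 1 in the GGsTop group, and 6 of 11 libraries were at 0. A library at 0 allows a level of up to 0.124 to 0.16 FPKM, the value of 3 fragments, and this limit covers counting error only. The difference in mean log2(FPKM + 1) between the GGsTop and Vehicle groups was -0.11 (exact two-sided permutation p = 0.429). It was -0.05 between the Vehicle and PBS groups (exact permutation p = 0.743) and -0.16 between the GGsTop and PBS groups (exact permutation p = 0.286). A difference in Ifng was thus not detectable at this depth.

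The cells that make interferon gamma were read from their markers. Summed over 6 NK cell markers, the level was 22.6 to 29 FPKM in the PBS group, 16.2 to 23.6 in the Vehicle group and 11 to 12 in the GGsTop group, where it was below every other library. Of the 4 NK markers tested, 3 were called lower in the GGsTop group than in the PBS group, beside 0.821% of all genes tested. Against the Vehicle group 2 were called lower, beside 1.81% of all genes. After the GC correction 1 was called there, beside 2.24% called in either direction. Between the Vehicle and PBS groups 1 was called lower, beside 22.1% of all genes, which is near the background. Gzma gave the largest part of the sum, with means of 12.1, 11.3 and 5.49 FPKM in the PBS, Vehicle and GGsTop groups. Klrb1c, which was under the limit for testing, was higher in the GGsTop group (mean 0.190 FPKM) than in the Vehicle group (0.143). The T cell sum was 14.8 to 26.4 FPKM in the GGsTop group, 21 to 43 in the PBS group, and 19.6 to 32 in the Vehicle group without library 12. No marker of the 14 cell and tissue lists was at 0 in all libraries. Whether these cells take part in the differences described next was not tested.

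Of the 7 genes tested between the Vehicle and PBS groups, Ifngr2 was called higher and Socs3 lower, at an adjusted p under 0.05 from limma. In this comparison 15.9% of all genes tested were called higher and 22.1% lower, so 1 member in each direction is near the background. With GGsTop against vehicle 1 member, Ifngr2, was called, and it was lower, beside 1.81% of all genes called lower and 6.9% higher. No member was called between the GGsTop and PBS groups, where 0.821% of genes were called lower and 2.06% higher. With the libraries of the same number paired, that last comparison called 62 genes and again no member. The same 6 libraries without the pairing called 14 genes, and the fit of all 11 libraries called 403. With the GC correction, 21.5% of genes were called between the Vehicle and PBS groups, among them Ifngr2, Jak1 and Socs1. It was 2.24% between the GGsTop and Vehicle groups, among them Ifngr2 and Socs1, and 4.35% between the GGsTop and PBS groups, with no member.

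Groups that do not overlap are a second reading of the same values. Ifngr2 and Jak2 lay higher in every Vehicle library than in any PBS library, beside 44.1% of all genes tested that did not overlap in this comparison. Ifngr2, Jak2 and Socs1 lay lower, and Socs3 higher, in every GGsTop library than in any Vehicle library, beside 29.7% of all genes. Jak1 and Socs1 lay lower in every GGsTop library than in any PBS library, beside 14.8% of all genes.

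The receptor chains followed different patterns. Ifngr1 (ENSMUSG00000020009, chromosome 10, 19591949 to 19610229), which binds the ligand, had the highest level of the 8 genes. It was at 62.2, 49.2 and 54.5 FPKM in PBS 1, 2 and 3, at 48.7, 46.3, 51.7 and 46.1 in Vehicle 12, 34, 56 and 78, and at 54.5, 51.2, 50.9 and 39.3 in GGsTop 1 to 4. The 3 groups overlap. Its log2 fold change was -0.19 ± 0.13 (SE) between the Vehicle and PBS groups (limma adjusted p = 0.248) and 0.01 ± 0.12 between the GGsTop and Vehicle groups (adjusted p = 0.957). After the GC correction these were -0.22 (adjusted p = 0.204) and 0.02 (adjusted p = 0.924).

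Ifngr2 (ENSMUSG00000022965, chromosome 16, 91547072 to 91565623) is the signalling chain that brings JAK2. It was at 17.1, 15.7 and 14.0 FPKM in PBS 1, 2 and 3, for a mean of 15.6 ± 1.59 (SD, n = 3). It was at 19.97, 21.0, 23.5 and 22.5 FPKM in Vehicle 12, 34, 56 and 78, for a mean of 21.7 ± 1.57 (SD, n = 4). In GGsTop 1 to 4 it was at 16.6, 16.5, 16.4 and 14.8 FPKM, for a mean of 16.1 ± 0.851 (SD, n = 4). The Vehicle group stood alone, and the other two groups shared their range. Between 825 and 1418 fragments lay behind each value. For Ifngr2 the log2 fold change was 0.45 ± 0.10 (SE) between the Vehicle and PBS groups (limma adjusted p = 0.00726) and -0.41 ± 0.09 between the GGsTop and Vehicle groups (adjusted p = 0.0272). Between the GGsTop and PBS groups it was 0.04 ± 0.10 (adjusted p = 0.831).

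The GC content of Ifngr2 (49.8%) lies at the median of the genes tested (49.9%), and the GC correction moved its values little. The corrected log2 fold changes were 0.48 (adjusted p = 0.0102) and -0.44 (adjusted p = 0.0390). The higher level in the Vehicle group was called with any 1 library left out, at adjusted p between 0.00905 and 0.0231. The lower level with GGsTop was called in 2 of 8 such fits, those without Vehicle 12 or GGsTop 4, with adjusted p between 0.0371 and 0.0955 and log2 fold changes between -0.45 and -0.38. With library 12, which had the high sum of thymocyte markers, left out, it was called at an adjusted p of 0.0371 (log2 fold change -0.45). With the correction and 1 library left out, it was called in 1 of 8 fits, at adjusted p up to 0.125.

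Neither kinase was called as deposited. Jak1 (ENSMUSG00000028530, chromosome 4, 101152367 to 101265282), the partner of IFNGR1 and of many other cytokine receptors, was at 35.0, 35.6 and 32.5 FPKM in PBS 1, 2 and 3. It was at 33.2, 28.5, 28.4 and 29.0 FPKM in Vehicle 12, 34, 56 and 78, and at 29.8, 30.01, 28.2 and 28.2 in GGsTop 1 to 4. All GGsTop libraries and, apart from library 12, all Vehicle libraries lay below the PBS group. The log2 fold change between the Vehicle and PBS groups was -0.20 ± 0.09 (SE, limma adjusted p = 0.0904). After the GC correction it was -0.27 ± 0.07 (adjusted p = 0.0277), and without library 12 it was -0.26 (adjusted p = 0.0481). Between the GGsTop and PBS groups it was -0.24 ± 0.09 (adjusted p = 0.17), and -0.27 after the correction (adjusted p = 0.07).

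Jak2 (ENSMUSG00000024789, chromosome 19, 29251828 to 29313080), the partner of IFNGR2, was at 16.9, 16.5 and 10.4 FPKM in PBS 1, 2 and 3. It was at 18.1, 20.1, 18.3 and 19.4 FPKM in Vehicle 12, 34, 56 and 78, and at 15.8, 17.5, 14.6 and 17.1 in GGsTop 1 to 4. The Vehicle libraries were the highest, and PBS 3, the library with the steep GC slope, was the lowest. With 44.3% GC, Jak2 is the most AT-rich of the 7 genes tested. Its log2 fold change between the Vehicle and PBS groups was 0.39 ± 0.15 (SE, limma adjusted p = 0.057), 0.18 without PBS 3, and 0.11 ± 0.10 after the GC correction (adjusted p = 0.438). Between the GGsTop and Vehicle groups it was -0.22 ± 0.14 (adjusted p = 0.293), and -0.03 ± 0.09 after the correction (adjusted p = 0.906).

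**Figure D2:**
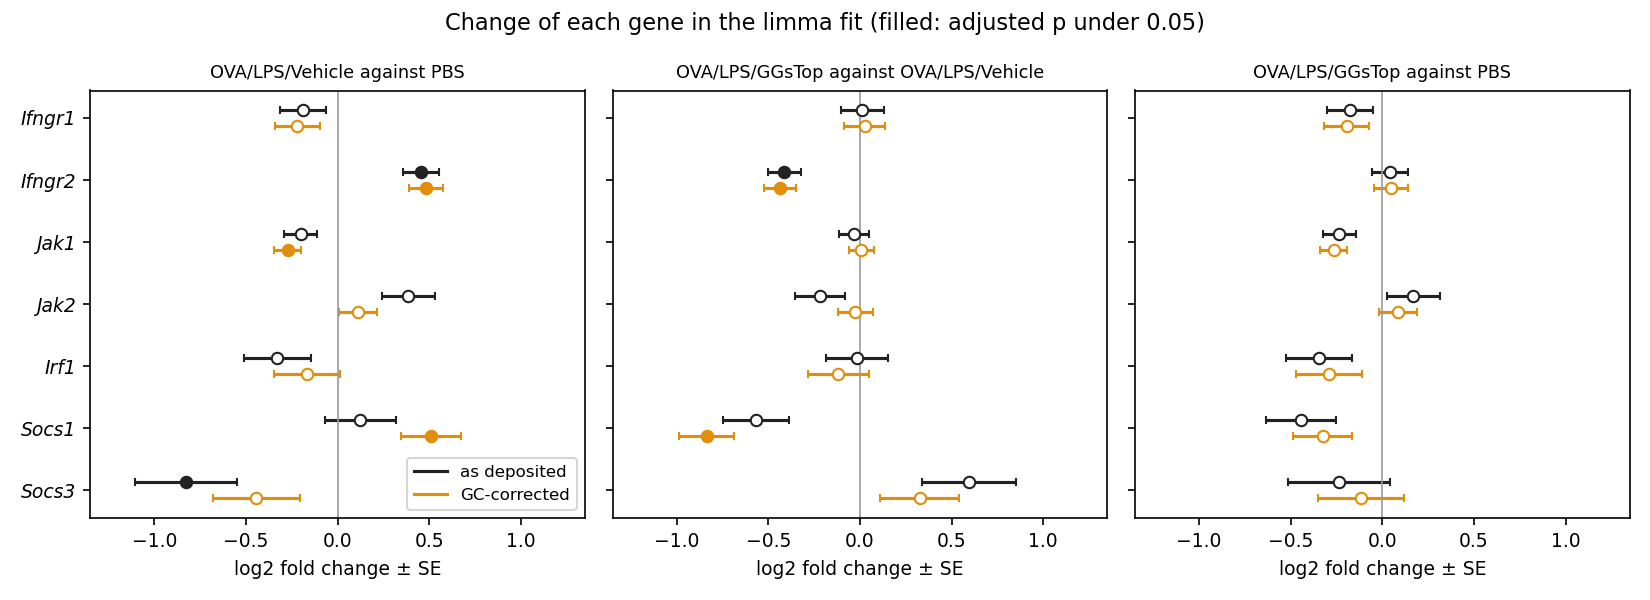
Log2 fold change (bars, ± SE) of the 7 tested genes in each of the 3 comparisons, as deposited (black) and after GC correction (orange), with filled points for an adjusted p under 0.05. Ifngr2 is filled under both in the first 2 panels, Socs3 only as deposited and Socs1 only after the correction.

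Irf1 (ENSMUSG00000018899, chromosome 11, 53770014 to 53778374), a transcription factor that interferon gamma induces, was at 34.5, 27.1 and 36.1 FPKM in PBS 1, 2 and 3. It was at 30.3, 23.7, 24.7 and 23.8 FPKM in Vehicle 12, 34, 56 and 78, and at 27.4, 22.6, 34.2 and 19.0 in GGsTop 1 to 4. The widest range was in the GGsTop group, and all groups overlap. For Irf1 the log2 fold change was -0.33 ± 0.18 (SE) between the Vehicle and PBS groups (limma adjusted p = 0.166). It was -0.02 ± 0.17 between the GGsTop and Vehicle groups (adjusted p = 0.962) and -0.35 ± 0.18 between the GGsTop and PBS groups (adjusted p = 0.307). Corrected for GC, the 3 values were -0.17, -0.12 and -0.29, none of them called. The sign of the middle value turned when library 12 was left out (0.06) and when all libraries were set to the same FPKM total (0.08).

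The feedback inhibitors lay on opposite sides of the Vehicle group in the GGsTop libraries, with Socs1 below and Socs3 above. Socs1 (ENSMUSG00000038037, chromosome 16, 10782240 to 10785536), the main inhibitor of the interferon gamma receptor, was at 2.05, 2.02 and 3.12 FPKM in PBS 1, 2 and 3. It was at 4.17, 2.24, 2.29 and 2.26 FPKM in Vehicle 12, 34, 56 and 78, and at 1.12, 1.80, 1.79 and 1.25 in GGsTop 1 to 4. The GGsTop group was the lowest, and the highest value was that of library 12. These values rested on 49 to 188 fragments. The log2 fold change between the GGsTop and Vehicle groups was -0.57 ± 0.18 (SE, limma adjusted p = 0.0647), and without library 12 it was -0.40 (adjusted p = 0.116). Fitted on the Vehicle and GGsTop groups alone, Socs1 was called, at an adjusted p of 0.0444. That fit called 3525 of 14004 genes, against 1220 in the fit over all 11 libraries. Between the GGsTop and PBS groups the log2 fold change was -0.44 ± 0.19 (adjusted p = 0.221).

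Socs1 has 58.8% GC, and at that GC content the median gene moved the other way, by 0.29 on the log2 scale in the class of 56 to 60% GC between the GGsTop and Vehicle groups. After the GC correction the log2 fold change of Socs1 in this comparison was -0.84 ± 0.15 (adjusted p = 0.0323), and -0.68 without library 12 (adjusted p = 0.042). Socs1 was called in 3 of the 8 corrected fits that leave out 1 library, with adjusted p up to 0.114. Against PBS, the Vehicle group was at 0.12 ± 0.19 as deposited (adjusted p = 0.626), at -0.04 without library 12, and at 0.51 ± 0.16 after the correction (adjusted p = 0.0465). This last call was lost with any 1 library left out, at adjusted p between 0.063 and 0.12. The corrected log2 levels of Socs1 were 1.54 to 1.59 in the PBS group, 1.91 to 2.53 in the Vehicle group and 1.03 to 1.43 in the GGsTop group. On this scale the 3 groups do not overlap, though the share of all genes that separate on it was not computed. As deposited, Socs1 overlapped between the Vehicle and PBS groups, where 44.1% of all genes tested did not overlap. That share was 29.7% between the GGsTop and Vehicle groups and 14.8% between the GGsTop and PBS groups.

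Socs3 (ENSMUSG00000053113, chromosome 11, 117966079 to 117970047), the inhibitor that STAT3 induces downstream of gp130 receptors, was at 23.6, 14.1 and 38.8 FPKM in PBS 1, 2 and 3. It was at 9.80, 15.1, 10.8 and 16.6 FPKM in Vehicle 12, 34, 56 and 78, and at 20.6, 22.5, 19.4 and 17.2 in GGsTop 1 to 4. The PBS group was the widest and overlapped both others, with its highest value in PBS 3. The log2 fold change between the Vehicle and PBS groups was -0.83 ± 0.28 (SE, limma adjusted p = 0.0363). It was -0.48 without PBS 3 (adjusted p = 0.165) and -0.44 ± 0.23 after the GC correction (adjusted p = 0.186). The call was also lost without PBS 1 (adjusted p = 0.0782), Vehicle 12 (0.0845) or Vehicle 56 (0.0862). Socs3 is also among genes that the study picked from these libraries for a comparison with steroid resistance, so its direction is not independent evidence.

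Socs3 was also higher in all 4 GGsTop libraries. The log2 fold change was 0.59 ± 0.26 (SE, limma adjusted p = 0.145) and 0.32 ± 0.22 after the GC correction (adjusted p = 0.397). Fitted on the Vehicle and GGsTop groups alone, Socs3 was called, at an adjusted p of 0.03, in a fit that called 3525 of 14004 genes. Its log2 fold change between the GGsTop and PBS groups was -0.24 ± 0.28 (adjusted p = 0.648), and 0.11 without PBS 3.

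**Figure D3:**
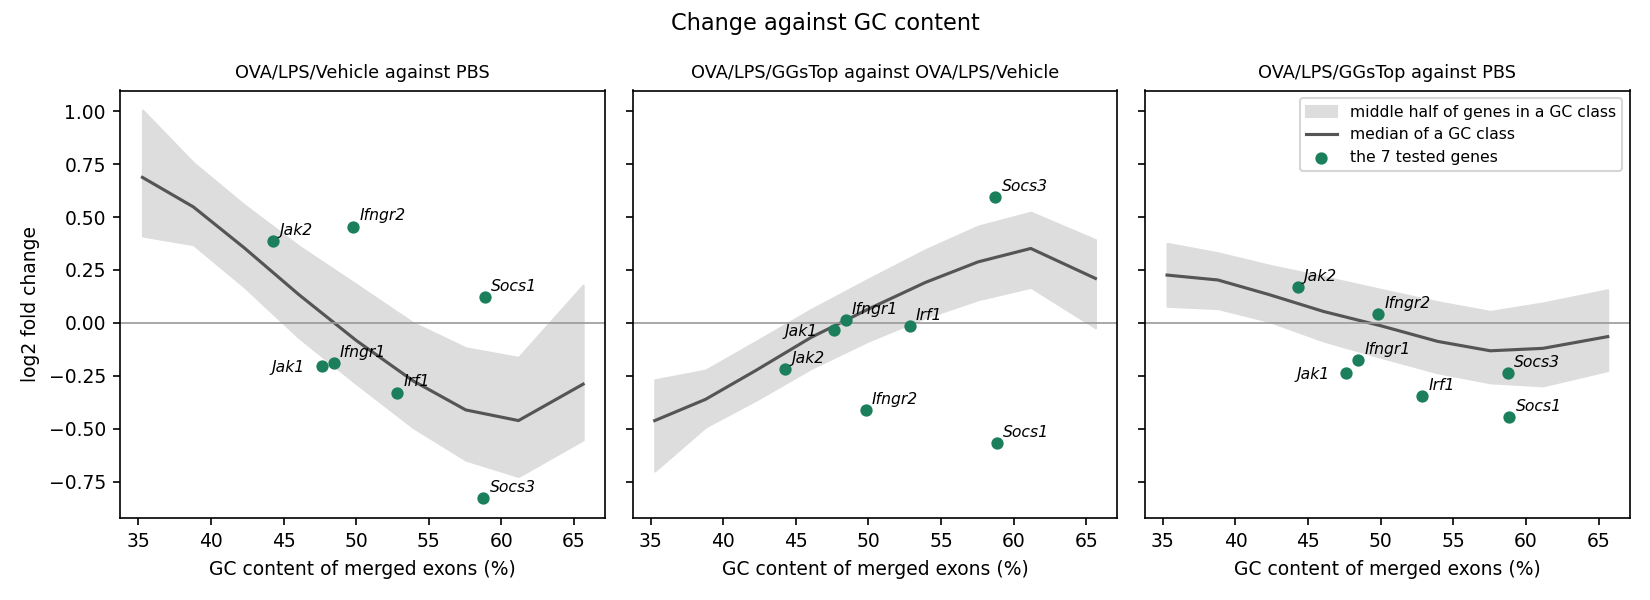
Log2 fold change against GC content in the 3 comparisons, with the median (line) and the range between the quartiles (grey band) of genes in classes of GC content and the 7 tested genes as points. GC content is the percent over the longest transcript of each gene, although the axis is labelled merged exons. In the middle panel Socs1 (-0.57) and Socs3 (0.59) lie on opposite sides of 0 at nearly the same GC content, 58.8% and 58.7%.

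Ratios between members were compared within each library, as the difference of log2(FPKM + 1), in 4 pairs and 3 comparisons with p-values adjusted over the 12 tests. The smallest p the exact permutation test can give is 0.0286 for 4 against 4 libraries and 0.0571 for 4 against 3, so that no adjusted p here could fall below 0.0571 and none could pass 0.05. Socs3 and Socs1 have nearly the same GC content (58.7% and 58.8%), so that their ratio is hardly touched by the GC slope. The plain FPKM ratio of Socs3 to Socs1, with nothing added, was 6.97 to 12.4 in the PBS group, 2.35 to 7.35 in the Vehicle group and 10.8 to 18.4 in the GGsTop group. Socs1 lay lower and Socs3 higher in every GGsTop library than in any Vehicle library. Their ratio thus had to separate these groups, and its p adds no evidence. Every GGsTop library lay above every Vehicle library, with a difference of 1.16 in the mean log2 ratio of FPKM + 1 (exact two-sided permutation p = 0.0286, adjusted p = 0.098). With 0.1 FPKM added in place of 1, which weighs on the low Socs1 values less, it was 1.44. The difference with 1 FPKM added was 1.16 after the GC correction as well, since the correction nearly cancels between genes of like GC content. It was 0.88 without library 12 (exact permutation p = 0.0571, the smallest that 3 against 4 libraries can give). Between the Vehicle and PBS groups the difference was -0.95 (exact permutation p = 0.114), with overlap.

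The plain ratio of the receptor chains, Ifngr2 to Ifngr1, was 0.256 to 0.32 in the PBS group, 0.41 to 0.489 in the Vehicle group and 0.304 to 0.377 in the GGsTop group. The Vehicle libraries lay above all others. On the scale tested, the difference in mean log2 ratio was 0.64 between the Vehicle and PBS groups (exact permutation p = 0.0571) and -0.42 between the GGsTop and Vehicle groups (exact permutation p = 0.0286), both with an adjusted p of 0.098. The plain ratio of Jak2 to Jak1 was 0.32 to 0.482 in the PBS group, 0.545 to 0.706 in the Vehicle group and 0.516 to 0.606 in the GGsTop group. The difference on the scale tested was 0.59 between the Vehicle and PBS groups and 0.40 between the GGsTop and PBS groups. Both had an exact permutation p of 0.0571 and an adjusted p of 0.098. Corrected for GC, these differences were 0.39 and 0.35. Between the GGsTop and Vehicle groups it was -0.18, with overlap (exact permutation p = 0.114), and -0.03 after the correction. The plain ratio of Socs1 to Irf1 was 0.0926 to 0.138 in the Vehicle group and 0.0408 to 0.0799 in the GGsTop group, and the difference on the scale tested was -0.55 (exact permutation p = 0.0286, adjusted p = 0.098), or -0.80 with 0.1 FPKM added.

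**Figure D4:**
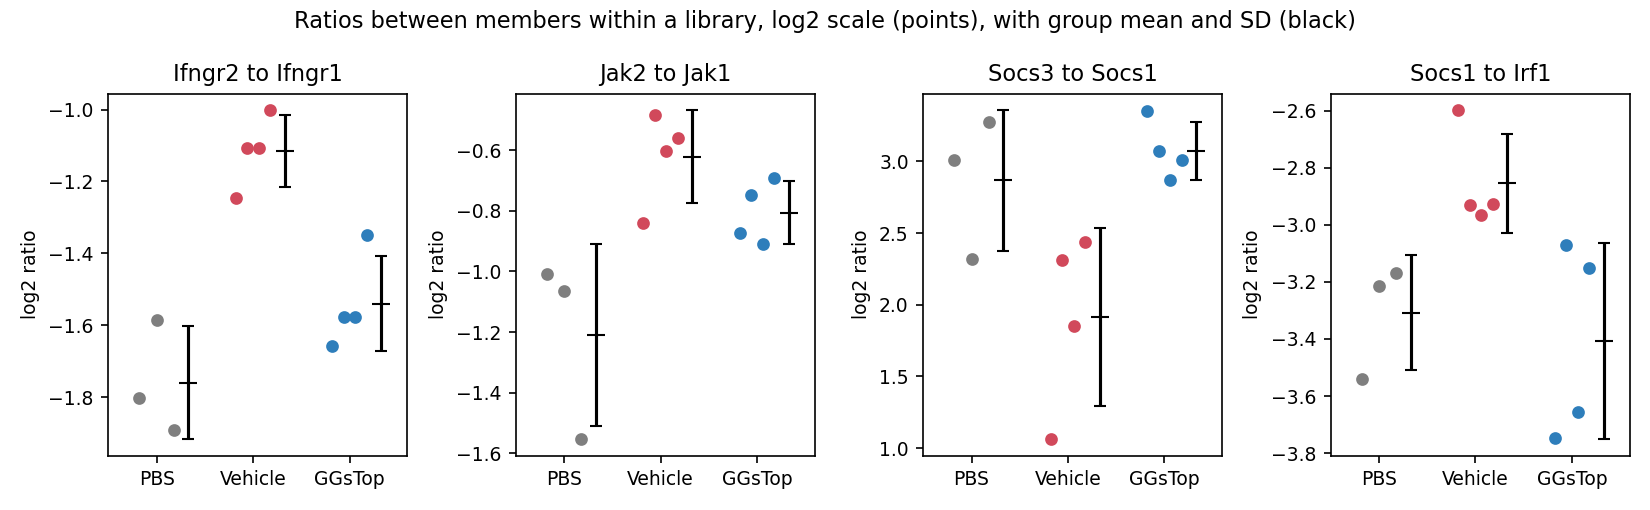
Log2 ratio of the levels of 2 members within each library (pseudocount 1 FPKM), with 1 point per library and the group mean and SD in black, on axes that do not start at 0. The 4 GGsTop points of Socs3 to Socs1 lie above all 4 Vehicle points.

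The rest of the pathway was read from 7 lists with 77 genes, of which 66 were tested. Between the Vehicle and PBS groups 19 of these were called lower and 6 higher, beside 22.1% and 15.9% of all genes tested, with a median log2 fold change of -0.19 against -0.01 over all genes tested. After the GC correction 10 were called lower and 1 higher, beside 1866 and 1135 of all 13987 genes in that fit. Without PBS 3 the counts were 12 and 3, beside 1889 and 1175 of all 14004 genes. Markers of other cells differed in the same comparison. Endothelium markers summed to 324 to 362 FPKM in the Vehicle group and 412 to 686 in the PBS group (3 of 4 called lower), and alveolar epithelium markers to 5.13e+03 to 8.49e+03 and 1.01e+04 to 1.62e+04 (2 of 4 called lower). Of 6 airway epithelium markers 2 were called higher. After the GC correction no endothelium marker was called, though all 4 stayed below 0, with a median log2 fold change of -0.53. With that correction 2 of 4 alveolar epithelium markers were called lower and 2 of 6 airway epithelium markers higher. The part of these cells in the pathway counts was not tested. Of 8 other JAK and STAT genes, 5 were called lower and none higher. Jak3, the kinase of the common gamma chain, fell by 1.01 on the log2 scale (limma adjusted p = 0.0115), Tyk2, a kinase of type I interferon and IL-12 receptors, by 0.68 (adjusted p = 0.00846), and Stat6, the factor of IL-4 and IL-13, by 0.55 (adjusted p = 0.0088). Corrected for GC, Jak3 fell by 0.62 (adjusted p = 0.0464) and Stat6 by 0.35 (adjusted p = 0.0481), while Tyk2 was at -0.33 (adjusted p = 0.0511).

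Of the 6 other SOCS family genes, 3 were called higher in the Vehicle group than in the PBS group, beside 15.9% of all genes tested. They were Socs4 (0.79, limma adjusted p = 0.0167), Socs6 (0.50, adjusted p = 0.00677) and Socs2 (0.29, adjusted p = 0.0499), and none was called after the GC correction, where Socs6 was at 0.00. Of 9 phosphatases and other brakes on JAK-STAT signalling, 5 were called lower and 2 higher, beside 22.1% and 15.9% of all genes tested. Ptpn2, a phosphatase of JAK kinases, was higher by 0.64 (adjusted p = 0.0109), and Pias3, which inhibits STAT3, fell by 0.48 (adjusted p = 0.0147). With the correction Ptpn2 was at 0.13 (adjusted p = 0.254) and Pias3 at -0.22 (adjusted p = 0.231). In that fit 2 of the 9 were called, both lower, beside 21.5% of all genes called in either direction, which is near the background. They were Pias1 (-0.42, adjusted p = 0.00852) and Ptpn11 (-0.24, adjusted p = 0.0282). Pias1, which was at -0.03 as deposited, is named here after its value was seen. Of 8 other interferon regulatory factors, 2 were called lower and 1 higher, which is near the background of 22.1% and 15.9%. Irf3 fell by 0.64 (adjusted p = 0.00866) and Irf7 by 0.55 (adjusted p = 0.024), and none of the 8 was called after the correction.

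Of 17 tested target genes of interferon gamma, 2 were called lower in the Vehicle group than in the PBS group and none was called higher. Of all genes tested, 22.1% were called lower and 15.9% higher. By sign, 8 of the 17 targets were below 0 and 9 above, with a median of 0.16. Icam1, an adhesion molecule for leukocytes, was at 55.4 to 119.5 FPKM in the PBS group and at 32.6 to 39.8 in the Vehicle group. It fell by 1.16 on the log2 scale (limma adjusted p = 0.00662), and by 0.87 after the GC correction (adjusted p = 0.0208). Nos2, the inducible nitric oxide synthase, fell by 0.80 (adjusted p = 0.0117), and it was at -0.58 after the correction (adjusted p = 0.051). Without library 12 the median of this list was -0.31, so that its sign rested on 1 library. In that fit 4 of its genes were called, beside 4634 of all 14004 genes.

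The inducers of interferon gamma and their receptors gave 2 genes called lower of 7 tested, and all 7 were below 0. Beside 22.1% of all genes called lower between the Vehicle and PBS groups, the 2 calls are near the background. Il12a, a subunit of IL-12, fell by 0.51 (limma adjusted p = 0.0339), and Il27ra, the IL-27 receptor, fell by 0.50 (adjusted p = 0.0197). Corrected for GC, Il12a fell by 0.62 (adjusted p = 0.0226), while Il27ra was at -0.20 (adjusted p = 0.345). Tbx21, the T-box factor of type 1 lymphocytes, was at -0.43 (adjusted p = 0.0738). Of 11 genes of the gp130 and IL-10 families, which induce Socs3, 9 were below 0. Of these, 3 were called lower, beside the same 22.1% of all genes. They were Il6st, which encodes gp130, by 0.44 (adjusted p = 0.00972), the cytokine gene Lif by 0.61 (adjusted p = 0.0368) and the granulocyte receptor gene Csf3r by 0.86 (adjusted p = 0.0456). Corrected for GC, Il6st was at -0.52 (adjusted p = 0.00967), while Lif and Csf3r were not called. The receptor gene Osmr (-0.49, adjusted p = 0.0213) and the cytokine gene Osm (0.50, adjusted p = 0.0332) were called only with the correction, and were chosen after their values were seen, to complete the count.

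**Figure D5:**
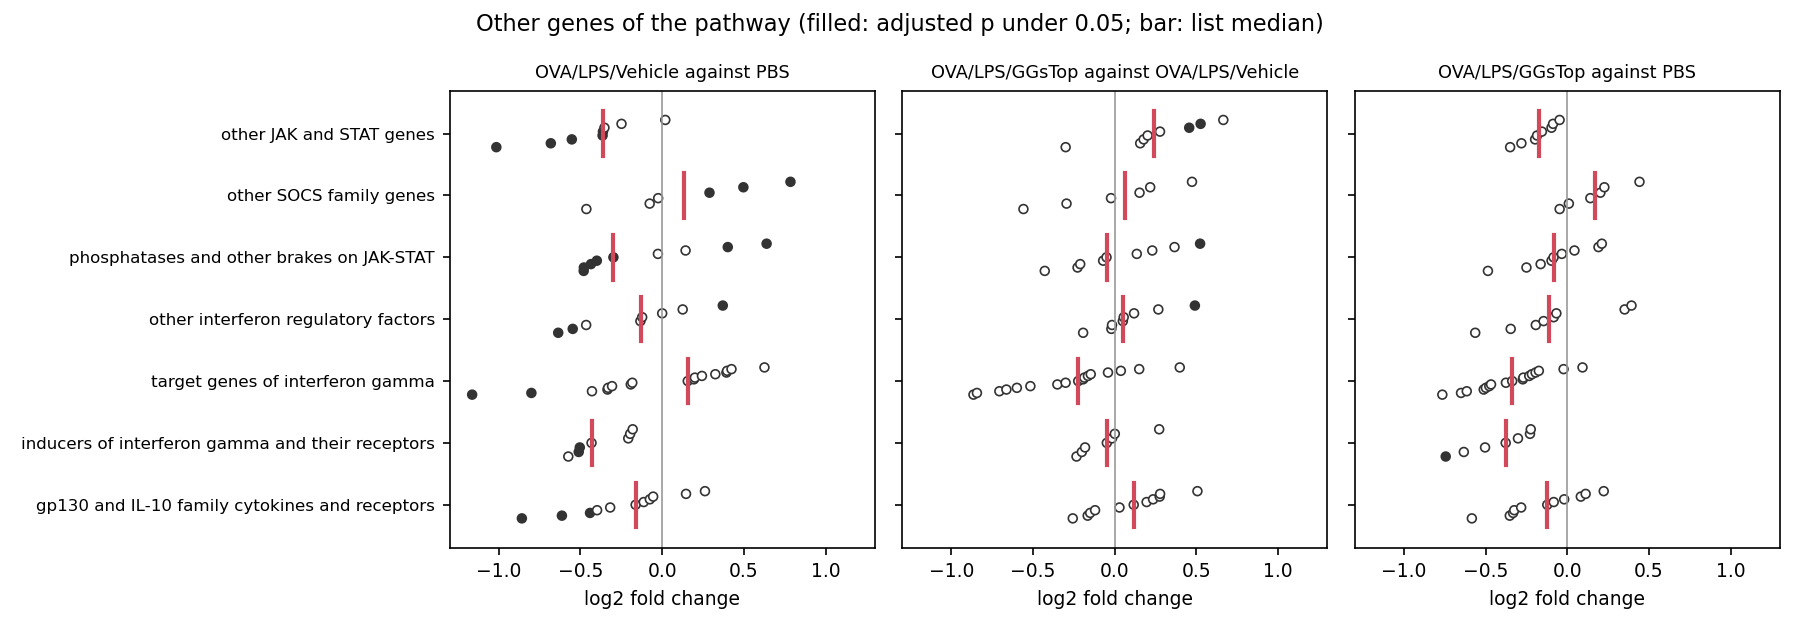
Log2 fold change of each tested gene of the 7 pathway lists (points, filled for an adjusted p under 0.05 as deposited) in the 3 comparisons, with the list median as a red bar. In the first panel 19 filled points lie below 0 and 6 above, and the other panels have 4 and 1 filled points.

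With GGsTop against vehicle 4 of the 66 genes were called, all higher, beside 6.9% of all genes tested called higher, which is near the background. They were Stat6 (0.46, limma adjusted p = 0.0389), Tyk2 (0.53, adjusted p = 0.0449), Pias3 (0.52, adjusted p = 0.0283) and Irf3 (0.49, adjusted p = 0.0458). None of the 66 was called after the GC correction or with any 1 of the Vehicle libraries left out. Without library 12 the values of the 4 genes were 0.48, 0.54, 0.49 and 0.48, in the same order, with adjusted p between 0.0531 and 0.0826. The 17 target genes of interferon gamma had a median of -0.22, against 0.03 over all genes tested, with 14 below 0 and none called. The corrected median was -0.36, and without library 12 it was -0.08 with 10 genes below 0.

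The lowest p-values among these targets were those of guanylate-binding proteins, GTPases that act against intracellular pathogens. Gbp5 was at 10 FPKM in library 12 and at 2.39 to 2.56 in the other Vehicle libraries, and it was at 1.23 to 1.78 in the GGsTop group. Gbp3 was at 26.3 FPKM in library 12, at 9.16 to 10.5 in the other Vehicle libraries and at 4.70 to 7.43 in the GGsTop group. Gbp2 was at 36.2 FPKM in library 12, at 16.6 to 20.5 in the other 3 and at 10.4 to 14.7 in the GGsTop group. For all 3 genes the GGsTop libraries lay below every Vehicle library, including those other than library 12, beside 29.7% of all genes tested whose groups did not overlap. The log2 fold changes were -0.84 for Gbp5 (limma adjusted p = 0.111), -0.86 for Gbp3 (adjusted p = 0.0714) and -0.66 for Gbp2 (adjusted p = 0.0833). Without library 12 they were -0.43 (adjusted p = 0.0857), -0.52 (adjusted p = 0.0661) and -0.42 (adjusted p = 0.131). After the GC correction they were -0.85, -0.75 and -0.59, with adjusted p between 0.151 and 0.16.

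In the comparison of GGsTop with PBS 1 of the 66 genes was called, and it was lower. Of all genes tested, 0.821% were called lower and 2.06% higher, so 1 call is near the background. Il12a fell by 0.74 (limma adjusted p = 0.041), and by 0.79 after the GC correction (adjusted p = 0.0249). After the correction Socs2 was called too, higher by 0.38 (adjusted p = 0.0438), in a fit that called 4.35% of all genes. Of the 17 target genes 16 were below 0, with a median of -0.34 as against 0.01 over all genes tested, and none was called. Psmb10, a subunit of the immunoproteasome, was at -0.61 (adjusted p = 0.0795), and Tbx21 was at -0.63 (adjusted p = 0.0766). None of the 66 genes was called without PBS 1 or 3, without GGsTop 1, 2 or 4, or with the libraries paired by number. Without PBS 2 the count was 6, and without GGsTop 3 it was 1. Without PBS 3 the value of Il12a was -0.83 (adjusted p = 0.0941).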

How the data were processed

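Poly-A RNA of airway tissue was sequenced in 11 libraries, 3 from PBS, 4 from OVA/LPS/Vehicle and 4 from OVA/LPS/GGsTop mice. The authors deposited FPKM per gene and library. The submitters' processing notes name cutadapt 1.15, HISAT2 2.0.5, HTSeq 0.9.1 and the build mm39, and whether counting used strand is not given in the sources used here. Multiplied by GENCODE M21 (GRCm38) merged exon lengths, the FPKM gave whole fragments within 0.02 in all libraries for 21364 genes (97.6%), though not for Irf1, and this gave the library totals. The coordinates printed are those of GRCm38, since the table has none.

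For the 14004 genes whose mean reached 0.5 FPKM, log2(FPKM + 1) was fitted with limma 3.58.1 (R 4.3.3) over all 11 libraries, with a mean-variance trend. Two-sided p-values were Benjamini-Hochberg adjusted over all these genes, with calls at 0.05. To correct for GC, each library's deviations from the gene means were smoothed against GC content (natural spline, 5 degrees of freedom) and the curve, less its mean, was subtracted (13987 genes). Ifng and ratios were compared by exact permutation tests in Python 3.11.15 (scipy 1.17.1), and figures were made with matplotlib 3.10.9. The fit was tested on simulated data with known changes. The members and gene lists were chosen with earlier results of these data known. The list genes Cxcl11 and Trbc1 were not found by symbol in the table. Named list genes are up to 3 per pathway list and comparison by smallest p. Some genes that the rules would name are not reported here.

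PBS and OVA/LPS/GGsTop share the numbers 1 to 3. Deviations from the group means correlated over genes at r = 0.37, 0.43 and 0.43 for equal numbers. The labels state no pairing, and these values do not establish one, so the block by number is only an alternative fit. Of the unequal numbers, PBS 1 with OVA/LPS/GGsTop 3 reached 0.46, above every equal pair. PBS 3 with OVA/LPS/GGsTop 1 reached 0.22, and the other 4 were below 0. Alternatives were another pseudocount, filter, scaling, trend, the 2 groups alone, the GC correction, the replicate block and each library left out. Chosen after seeing the data were a GC correction that also removes library means, GC correction with a library left out, voom on recovered fragments, the paired libraries without pairing, and all alternatives for the pathway lists.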

Additional observations from a re-analysis of the deposited data

Results flagged for a closer look

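In 16 groups of 4 libraries (8 genes, 2 groups), 5 had a library farther from the others than Dixon's 95% critical value for the gap over the range, where chance flags about 1 in 20 groups. OVA/LPS/Vehicle 12 accounts for 3 of them, so the flags are not independent, and 5 of 16 does not measure an excess over chance. Socs1 was at 4.17 FPKM there against 2.24 to 2.29 in the other 3 libraries, Irf1 at 30.3 against 23.7 to 24.7, and Jak1 at 33.2 against 28.4 to 29. This library also held 23.6 FPKM of thymocyte markers, from Rag1, Rag2 and Dntt but not Ptcra. The part of the cells that carry these markers in the 3 values was not tested. Ifngr2 was at 14.8 FPKM in OVA/LPS/GGsTop 4, below 16.4 to 16.6 in the other 3. Ifng was at 0.0489 FPKM in OVA/LPS/GGsTop 3, which is 1 fragment, and at 0 in the other 3. With 3 values at 0 the gap over the range is always 1, so this flag carries no information.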

How the results depend on the processing

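Of 228 member values under alternatives other than leaving out a library, 207 kept their sign and their side of the threshold, 6 turned sign and 15 changed side. The exceptions follow as log2 fold changes, and their cause was not tested unless the alternative changes which libraries or genes enter. Before GC correction, the OVA/LPS/Vehicle against PBS comparison called 5327 genes, then 3001 with it and 2904 with library means removed too. GGsTop against vehicle called 1220, against 2181 (155 lower, 2026 higher) at the same FPKM total, 698 (354 lower, 344 higher) at the same median, 3525 with only these groups, 313 with GC correction and 56 with library means removed. At the same FPKM total the median of all genes moved by -0.15 in the first comparison and 0.11 in the second. OVA/LPS/GGsTop against PBS called 403, against 208 with no filter, 39 with only these groups and 609 with GC correction.

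With PBS and OVA/LPS/GGsTop paired by number (replicate block), 62 genes were called, and 14 in the same 6 libraries without the pairing. Of the pathway list genes 0 were called with the replicate block, 0 with the block and GC correction, and 0 in those 6 libraries without pairing. The block changed no member's call.

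For OVA/LPS/Vehicle against PBS, Jak1 was called at the same FPKM total (-0.37), with GC correction (-0.27) and with library means removed (-0.30). Jak2 was called at the same median (0.39) and Socs1 with GC correction (0.51). Socs3 was not called with no filter (-0.83), with only these groups (-0.83), with GC correction (-0.44) or with library means removed (-0.47). In the comparison of GGsTop with vehicle, Ifngr2 was not called with library means removed (-0.46). Socs1 was called with only these groups (-0.57), with GC correction (-0.84) and with library means removed (-0.86), and Socs3 with only these groups (0.59). The sign turned for Ifngr1 at the same median (-0.036), for Jak1 at the same FPKM total (0.062) and with GC correction (0.0073), and for Irf1 at the same FPKM total (0.077). For OVA/LPS/GGsTop against PBS, the sign of Ifngr2 turned at the same FPKM total (-0.032) and the same median (-0.0018), and Jak1 was called with library means removed (-0.31).

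Of the pathway list genes, OVA/LPS/Vehicle against PBS called 11 with GC correction and 9 with library means removed. GGsTop against vehicle called 2 with no filter, 8 at the same FPKM total, 0 at the same median, 12 with only these groups, 0 with GC correction and 0 with library means removed. OVA/LPS/GGsTop against PBS called 2 with a pseudocount of 0.1, 2 with a minimum of 1 FPKM, 0 with no filter, 0 with only these groups, 2 with GC correction, 2 with library means removed and 0 with voom.

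Leaving out 1 library at a time gave 3064 to 6440 genes for OVA/LPS/Vehicle against PBS (3064 without PBS 3), 24 to 1052 for GGsTop against vehicle and 29 to 1597 for OVA/LPS/GGsTop against PBS. The pathway lists gave 14 to 26, 0 to 4 and 0 to 6. With and without GC correction, members ranged as follows. Against PBS, OVA/LPS/Vehicle gave -0.33 to -0.18 for Jak1, -0.0034 to 0.50 for Jak2, -0.043 to 0.56 for Socs1 and -1.18 to -0.23 for Socs3, and -0.13 to 0.061 for Ifng. GGsTop against vehicle gave -0.042 to 0.13 for Ifngr1, -0.47 to -0.38 for Ifngr2, -0.053 to 0.0615 for Jak1, -0.25 to 0.027 for Jak2, -0.27 to 0.11 for Irf1 and -0.90 to -0.40 for Socs1. OVA/LPS/GGsTop against PBS gave -0.036 to 0.12 for Ifngr2, -0.041 to 0.28 for Jak2 and -0.59 to 0.11 for Socs3. Log2 ratios of GGsTop against vehicle ranged from -0.49 to -0.39 for Ifngr2 to Ifngr1, 0.88 to 1.33 for Socs3 to Socs1 and -0.66 to -0.44 for Socs1 to Irf1, where 3 against 4 libraries cannot reach 0.05. Against PBS, OVA/LPS/GGsTop gave -0.065 to 0.41 for Socs3 to Socs1 and -0.21 to 0.015 for Socs1 to Irf1. Depth limits Ifng, which rests on 17 fragments in all, and Socs1, with 49 to 188 per library.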

Other observations

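Genes whose levels followed a member most closely were read from Pearson's r of log2(FPKM + 1) over the 11 libraries, as a description, since the points share libraries, depth and the GC slope. Socs3 was followed by Dpep1 (r = 0.96), Tspan11 (0.95), Nek6 (0.94), Ints5 (0.94) and Litaf (0.94). Among the genes that followed Socs1 were Ms4a6c (0.88), Alyref (0.88), Lacc1 (0.88) and Uck2 (0.87). Irf1 was followed by Iah1 (0.95), Gja4 (0.94), Vangl2 (0.93), Hbb-bt (0.93) and Ppp1r8 (0.93). The values for Ifng rest on 17 fragments in all, so that its nearest genes, Amer1, Rbm43, Cdc25a, Mapk9 and Gtpbp8 (r = 0.89 to 0.92), are named for completeness only.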
